A study of Mus musculus with 23 samples.

Results

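The 40 myeloid and macrophage genes described here are a fixed list of lineage genes, matched by symbol to the gene start windows of the deposited count tables. All 40 were found among 41388 windows, each 3 kb long at a transcription start, and each window was counted in 23 libraries. The libraries hold genomic DNA of the left ventricle of the heart or of the spleen of individually housed male C57Bl/6 mice. The DNA was sheared and enriched for methylated CpG with MethylMiner, in which a methyl-CpG binding protein on beads retains methylated fragments. Control mice ate a diet without resistant starch. High fibre mice ate a diet rich in resistant starch, and acetate mice received 100 mM magnesium acetate in drinking water. All groups were kept on their diets from 3 weeks before an operation for a minipump to the end of the study. Heart had 4 control, 4 high fibre and 3 acetate libraries, and spleen had 4 of each. The study asked whether fibre or acetate alters DNA methylation in these organs. The labels do not say that libraries of a group come from separate mice, so a p-value here covers the spread among libraries, which may be technical. Animal age and what the minipumps delivered are not given in the sources used here.

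Myeloid cells arise from progenitors under the control of lineage transcription factors such as PU.1 and the C/EBP proteins, and mature into neutrophils, monocytes, macrophages and dendritic cells. Promoters of lineage genes are often poor in CpG, methylated in cells of other lineages and demethylated in the cells that use them. The spleen holds red pulp macrophages, marginal zone macrophages and granulocytes beside many lymphocytes, whereas macrophages of the heart are a minority among cardiomyocytes, endothelial cells and fibroblasts. In bulk tissue, a changed mix of cells and changed methylation within cells cannot be told apart. No unenriched input library was used, so a count compares libraries and gives no absolute methylation level.

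RefSeq promoter sequences of build GRCm38.p6, running from 250 bases before to 50 after a transcription start, were matched for 30 of the 40 genes. They are CpG-poor as a set, where a gene with several promoters is represented by the one with the most CpG. The median of these 30 genes was 5 CpG (range 0 to 50), against 8 over all 27025 genes of the table. Fewer than 10 CpG were held by 24 of 30 (80.0%), against 54.2%. The letters GAGGAA, contained in many PU.1 sites, stood on either strand in 16 of 30 genes (53.3%) against 31.3% of all genes, which is a match of letters and not a binding site. The sequences below show the range from CpG-dense transcription factor promoters to CpG-poor effector promoters, 5′ to 3′, with each CG in capitals. They belong to Cebpb (chr2:167688665-167688964, plus strand, 50 CpG), Irf8 (chr8:120736108-120736407, plus strand, 38 CpG), Cyba (chr8:122432891-122433190, minus strand, 9 CpG), Prtn3 (chr10:79879417-79879716, plus strand, 4 CpG), S100a9 (chr3:90695672-90695971, minus strand, 2 CpG) and Lyz2 (chr10:117282223-117282522, minus strand, 1 CpG).
Cebpb: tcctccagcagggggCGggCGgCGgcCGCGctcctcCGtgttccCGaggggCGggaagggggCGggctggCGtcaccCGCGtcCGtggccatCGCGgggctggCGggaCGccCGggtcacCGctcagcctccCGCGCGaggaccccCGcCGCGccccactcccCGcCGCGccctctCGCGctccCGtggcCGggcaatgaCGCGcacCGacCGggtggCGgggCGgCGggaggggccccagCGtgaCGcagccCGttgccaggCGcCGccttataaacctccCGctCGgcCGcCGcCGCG
Irf8: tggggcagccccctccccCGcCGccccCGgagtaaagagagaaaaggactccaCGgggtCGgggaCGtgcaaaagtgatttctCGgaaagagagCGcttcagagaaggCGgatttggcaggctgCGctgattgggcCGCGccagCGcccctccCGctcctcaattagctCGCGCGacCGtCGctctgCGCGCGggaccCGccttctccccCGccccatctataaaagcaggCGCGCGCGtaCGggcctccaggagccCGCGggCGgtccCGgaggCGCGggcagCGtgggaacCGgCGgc
Cyba: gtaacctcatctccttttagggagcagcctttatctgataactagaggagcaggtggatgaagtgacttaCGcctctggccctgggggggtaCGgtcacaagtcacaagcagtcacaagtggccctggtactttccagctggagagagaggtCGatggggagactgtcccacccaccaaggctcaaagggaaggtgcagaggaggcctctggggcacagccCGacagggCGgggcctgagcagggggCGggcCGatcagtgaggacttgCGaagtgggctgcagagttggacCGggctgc
Prtn3: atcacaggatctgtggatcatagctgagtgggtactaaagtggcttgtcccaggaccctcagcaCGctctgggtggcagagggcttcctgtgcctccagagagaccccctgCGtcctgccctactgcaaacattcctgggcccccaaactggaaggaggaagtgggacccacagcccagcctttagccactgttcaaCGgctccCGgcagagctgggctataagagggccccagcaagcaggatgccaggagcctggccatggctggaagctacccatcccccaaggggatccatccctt
S100a9: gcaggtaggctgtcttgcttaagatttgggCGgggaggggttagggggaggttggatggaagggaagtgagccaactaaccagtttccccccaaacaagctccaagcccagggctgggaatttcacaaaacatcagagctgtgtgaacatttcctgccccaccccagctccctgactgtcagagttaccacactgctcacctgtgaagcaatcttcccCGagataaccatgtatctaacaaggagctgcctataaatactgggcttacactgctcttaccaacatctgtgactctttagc
Lyz2: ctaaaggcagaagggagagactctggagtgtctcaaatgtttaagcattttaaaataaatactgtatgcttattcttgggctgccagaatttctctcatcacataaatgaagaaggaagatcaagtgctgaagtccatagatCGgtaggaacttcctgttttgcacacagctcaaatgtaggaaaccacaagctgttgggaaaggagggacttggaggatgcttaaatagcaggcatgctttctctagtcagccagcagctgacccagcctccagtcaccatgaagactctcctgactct
The first pair are transcription factor genes, and Irf8 is also the member with the highest capture in both tissues. Cyba and Prtn3 were below control in high fibre hearts and S100a9 was above it, as given below, and Lyz2 is the gene most used to mark or delete genes in the myeloid lineage. No entry was found for Cd14, C1qa, Spi1, Cebpe, Tyrobp, Tlr4, Msr1, Csf1r, Ncf4 and Siglec1.

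Library totals were 4.12 to 8.60 M (mega) counts in heart and 4.36 to 9.87 M in spleen, and the 40 windows together received 4134 to 7139 and 2441 to 5340 reads per library. A single window, Gm10800, took 42.3% ± 5.80 (SD, n = 4) of control heart counts, 19.05% ± 1.70 (SD, n = 4) of high fibre and 33.8% ± 10.5 (SD, n = 3) of acetate counts, and 51.9% to 55.8% on average in the spleen groups. Among heart libraries, acetate replicate 1 was the highest at 27.3% and the lowest at 28.8% of tested windows, and high fibre replicate 4 at 17.3% and 16.2%, and results without each are given below. Levels are given as counts per M reads after TMM scaling (trimmed mean of M-values, edgeR), written CPM, within a tissue unless stated. TMM sets the typical window equal between libraries. Scaling by library totals instead moved the median of all windows by 0.69 on the log2 scale between high fibre and control hearts, so the direction of a change below is relative to the typical window. Values with library totals stand beside each member called in high fibre against control hearts.

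Capture at these genes was above that of most windows in both tissues. The median member stood at 19.6 CPM in heart against 9.02 CPM for all windows, with 33 of 40 above that value, and at 10.7 against 2.62 CPM in spleen, with 30 of 40 above. Windows share 1 length, but capture also depends on how many CpG a window holds, so levels of different genes are not levels of methylation per CpG. Promoter CpG was set against another level, the mean of reads per M counted outside Gm10800 without TMM scaling. On that scale, the 7 members with 0 to 2 promoter CpG had a median of 21.3 in heart, against 9.47 for all such windows. In spleen the values were 10.5 against 1.82. The excess was not the same in every class of CpG number. The 7 members with 6 to 9 CpG had 28.5 against 24.7 in heart and 18.1 against 18.4 in spleen. Cebpa, alone in the class of 20 to 29, had 21.7 against 22.3 in heart and 4.53 against 14.6 in spleen. Members with 3 to 5 CpG had 31.1 against 18.7 and 28.6 against 9.40. Medians of members were also above those of all windows at 10 to 19 and at 30 or more CpG. The rank correlation of promoter CpG number with this level in heart was 0.24 over 30 members and 0.20 over 17609 windows. In spleen it was 0.095 and 0.20, and members and windows share the same libraries.

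In heart, mean levels were 110.8 CPM at Irf8, a factor of monocyte and dendritic cell development, 69.3 at Ncf4, 62.2 at Vav1, 56.1 at Spi1 and 49.0 at Ncf1. In spleen, Irf8 (71.4 CPM) was followed by Cebpe (46.0), Ncf4 (40.6) and Ncf1 (33.9). At the low end of heart stood S100a8 (7.94 CPM), Tlr4 (5.06), S100a9 (4.59), Fcer1g (2.48), Cebpb (2.10) and Cd163 (0.429). The start of Cebpb lies 1844 bases from that of A530013C23Rik and the start of Mpo 1434 bases from that of Gm34064, both within reach of a 3 kb window. How reads in overlapping windows were counted is not given in the sources used here.

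Cd68, a lysosomal glycoprotein of macrophages, had 0 reads in all 23 libraries, which by counting error alone allows up to 0.0477 reads per M over the heart libraries and 0.0344 over the spleen libraries. Cd163, the haemoglobin scavenger receptor, had 31 reads in all, 29 of them in heart. The windows of Cd68 and Cd163 did not pass the filter on low counts in either tissue. Cebpb, Fcer1g, S100a9 and Tlr4 did not pass it in spleen, which left 38 members tested in heart and 34 in spleen.

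**Figure D1:**
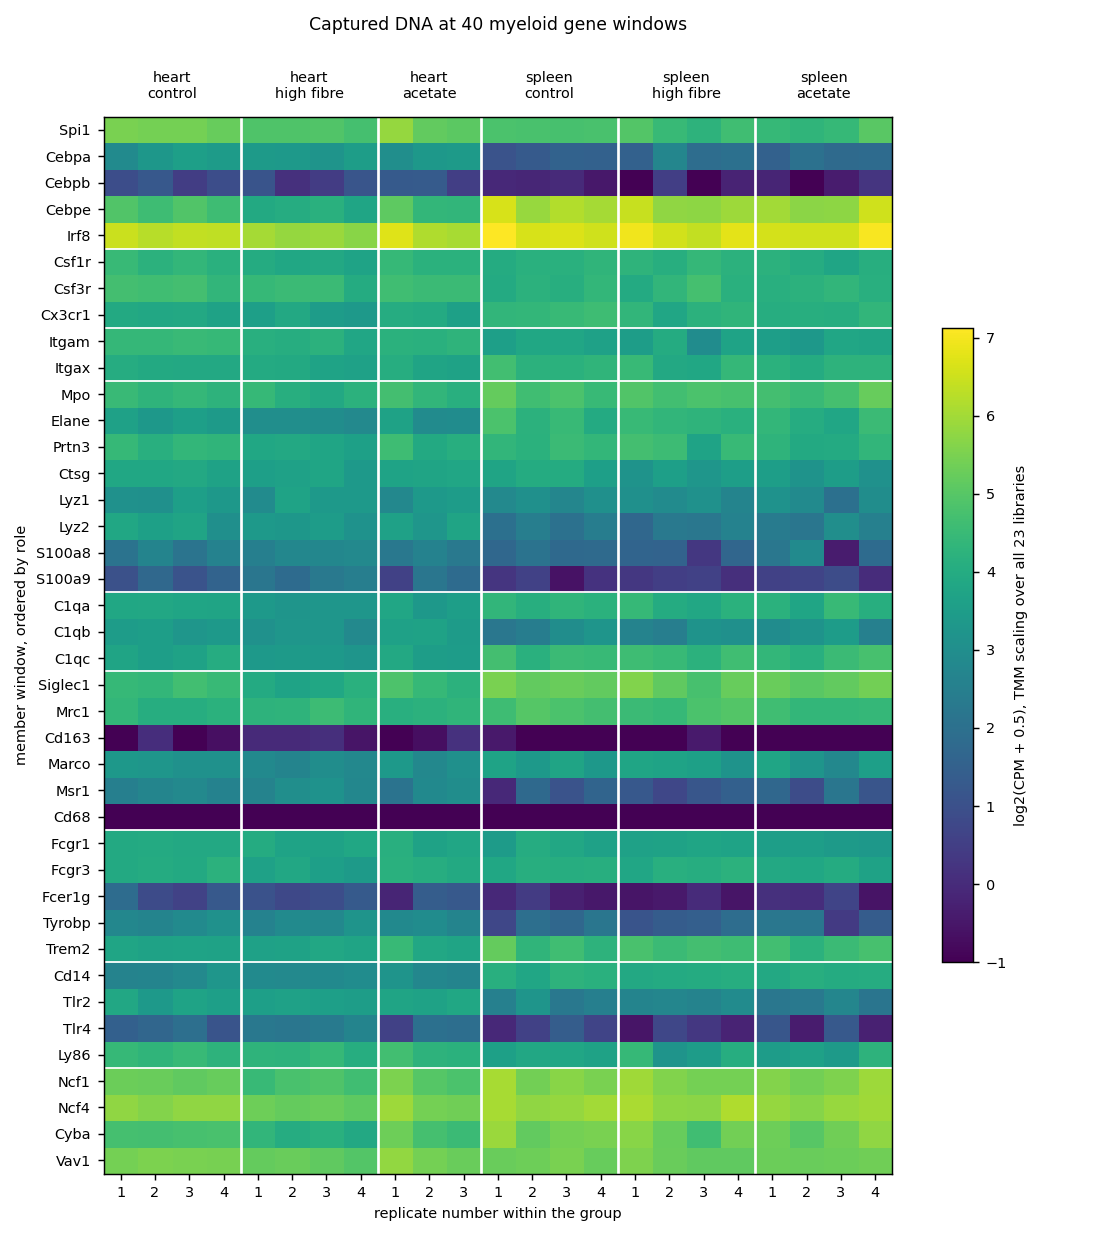
Log2 of CPM plus 0.5 (colour, TMM scaling over all 23 libraries) at the 40 member windows (y axis, ordered by role), for each library (x axis, replicate number within tissue and diet). Irf8, Ncf4, Ncf1, Vav1 and Spi1 are bright in both tissues, Cd68 has no reads, and Cebpa is brighter in heart while Cebpe and Cd14 are brighter in spleen.

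In high fibre against control hearts, 15 of 38 tested members had less capture, 2 had more and 21 did not pass. Of the 38, 17 passed the edgeR test at an adjusted p of 5%, where 26.2% of all tested windows did: 15 were lower (13.6% of all windows) and 2 were higher (12.6%). At an unadjusted p under 5% there were 19, against 41.3% of all windows. With library totals 0 were called lower and 19 higher, and 14 of the 17 calls turned in sign, while all 17 stayed on the same side of the median window. In 16 members all 4 high fibre libraries lay below all 4 control libraries (17.1% of all windows), and in 2 they lay above (16.6%). The median log2 fold change was -0.25 over members and 0.02 over all windows, and 28 of 38 were below 0 against 48.4%.

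Transcription factors of the lineage were split. Spi1, which encodes PU.1 (chr2:91082374-91115759), read 67.7, 64.6, 64.4 and 56.7 CPM on control diet, 44.6, 44.0, 44.7 and 39.6 on high fibre and 87.0, 53.3 and 50.1 on acetate. Every high fibre library was below every control library at Spi1, and acetate replicate 1 was the highest of all (log2 -0.55, SE 0.14, edgeR adjusted p = 0.00994, against 0.15 with library totals). Cebpe, needed for the late granulocyte steps, read 44.9, 35.7, 45.3 and 36.1 CPM on control diet, 22.6, 24.1, 26.5 and 20.2 on high fibre and 51.9, 30.9 and 29.98 on acetate. Its high fibre values were all lower than control (log2 -0.78, SE 0.15, edgeR adjusted p = 0.00519, against -0.08 with library totals). Irf8 likewise did not overlap, with a log2 fold change of -0.50 with TMM (adjusted p = 0.0115) and 0.20 with library totals. Cebpa, which commits progenitors to the granulocyte and monocyte path, read 10.4, 14.0, 17.6 and 16.04 CPM on control diet, 15.5, 15.4, 13.1 and 16.5 on high fibre and 11.6, 14.5 and 15.5 on acetate. These groups overlapped (log2 0.08, adjusted p = 0.715), and so did those of Cebpb at a few reads per M (-0.18, adjusted p = 0.726).

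Of the receptors for growth factors and chemokines, Csf1r, the receptor for the macrophage factors CSF1 and IL-34, passed. It read 33.2, 27.6, 30.9 and 26.4 CPM on control diet, 23.5, 21.2, 22.0 and 19.2 on high fibre and 32.5, 26.9 and 26.9 on acetate, so the high fibre values lay below all of control (log2 -0.46, SE 0.12, edgeR adjusted p = 0.0127, against 0.24 with library totals). Csf3r, the receptor for G-CSF, and Cx3cr1, the fractalkine receptor of patrolling monocytes and resident macrophages, gave -0.20 (adjusted p = 0.235) and -0.26 (adjusted p = 0.147), against 0.49 and 0.44 with library totals. The start of Csf3r lies 5 bases from that of Gm32908, so their reads cannot be separated. Of the integrin alpha chains, Itgam (CD11b) read 31.1, 31.6, 33.3 and 32.3 CPM on control diet, 25.8, 24.6, 27.3 and 20.5 on high fibre and 26.8, 26.0 and 29.2 on acetate. Control exceeded both other groups at Itgam in every library, and only high fibre passed the test (log2 -0.38, SE 0.12, edgeR adjusted p = 0.0222, against 0.31 with library totals). Itgax (CD11c) gave -0.13 (adjusted p = 0.421, against 0.56 with library totals).

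Granule and antimicrobial genes passed in both directions. Prtn3 and Elane encode serine proteases of azurophil granules, and both were lower without overlap with TMM. Their log2 fold changes were -0.54 and -0.55 (edgeR adjusted p = 0.0106 and 0.0155), against 0.15 and 0.14 with library totals. Their partners in the same granules did not pass: Mpo, myeloperoxidase, read 33.3, 28.4, 31.6 and 28.1 CPM on control diet, 32.6, 25.2, 22.1 and 27.2 on high fibre and 38.4, 29.8 and 25.8 on acetate, with overlapping groups (log2 -0.18, adjusted p = 0.315), and Ctsg gave -0.21 (adjusted p = 0.189). With library totals these gave 0.52 and 0.48. S100a9, a subunit of calprotectin, went the other way, at 2.28, 4.30, 2.44 and 3.82 CPM on control diet, 6.19, 4.71, 6.71 and 7.74 on high fibre and 1.49, 6.15 and 4.64 on acetate. All high fibre values exceeded all control values, on 11 to 26 reads in control and 26 to 54 in high fibre (log2 0.91, SE 0.31, edgeR adjusted p = 0.0327, against 1.53 with library totals). S100a8, the other calprotectin subunit, read 5.63, 8.92, 5.78 and 8.40 CPM on control diet, 7.83, 9.60, 9.56 and 9.89 on high fibre and 6.56, 8.499 and 6.65 on acetate, and its groups overlapped (log2 0.35, adjusted p = 0.173). Lysozyme gene Lyz2 read 20.9, 17.8, 19.6 and 11.7 CPM on control diet, 14.7, 14.3, 16.1 and 12.6 on high fibre and 18.5, 13.7 and 19.8 on acetate, again with overlap (log2 -0.27, adjusted p = 0.187, against 0.42 with library totals). Lyz1 gave 0.11 (adjusted p = 0.650). Lyz1 and Lyz2 are near-identical copies whose starts lie 10596 bases apart, so the share of reads between them is uncertain.

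C1q, the recognition molecule of the classical complement pathway, is made of chains from a cluster of 3 adjacent genes, and tissue macrophages are its main source. C1qa (chr4:136895916-136898844) read 21.0, 21.2, 19.8 and 19.7 CPM on control diet, 14.9, 13.6, 14.0 and 13.8 on high fibre and 20.6, 14.5 and 17.3 on acetate. High fibre values were all below control with little spread (log2 -0.53, SE 0.12, edgeR adjusted p = 0.00733, against 0.15 with library totals). C1qc followed at -0.40 with TMM (adjusted p = 0.0297) and 0.28 with library totals, and C1qb did not pass (log2 -0.32, adjusted p = 0.0787, against 0.36 with library totals).

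Of 4 tested scavenger and lectin receptors, Siglec1 alone passed. Siglec1 (sialoadhesin, CD169) marks marginal metallophilic and other resident macrophages and read 32.4, 30.7, 37.6 and 33.2 CPM on control diet, 22.8, 19.02, 21.0 and 26.2 on high fibre and 43.5, 31.8 and 27.7 on acetate. No high fibre library reached the lowest control (log2 -0.57, SE 0.14, edgeR adjusted p = 0.00898, against 0.12 with library totals). Marco, a class A scavenger receptor of marginal zone macrophages, also did not overlap but missed the threshold (log2 -0.39, adjusted p = 0.0510, against 0.28 with library totals). Mrc1, the mannose receptor, and Msr1 gave 0.18 (adjusted p = 0.259) and 0.27 (adjusted p = 0.266). Mrc1 passed as higher with cyclic loess scaling (0.40, limma adjusted p = 0.0300).

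Among Fc receptors and ITAM adaptors, the low-affinity IgG receptor Fcgr3 was lower, at -0.39 with TMM (adjusted p = 0.0263) and 0.29 with library totals. The other 4 did not pass: Fcgr1, the high-affinity receptor, gave -0.11, the common gamma chain Fcer1g -0.24, the adaptor Tyrobp 0.04 and its partner receptor Trem2 0.04. With library totals Fcgr1 gave 0.57 and Fcer1g 0.38. Among receptors for endotoxin and lipoproteins, Tlr4 read 3.50, 4.13, 5.11 and 2.48 CPM on control diet, 6.55, 6.16, 6.99 and 8.89 on high fibre and 1.49, 5.24 and 5.10 on acetate. All 4 high fibre values were above all control values (log2 0.87, SE 0.28, edgeR adjusted p = 0.0296, against 1.53 with library totals). Its co-receptor Cd14 gave 0.02, Tlr2 -0.06 and Ly86, which pairs with a TLR4 homologue on B cells and macrophages, -0.10, and none of these passed.

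The phagocyte oxidase genes and Vav1 formed the role group in which every member passed. Cyba, the membrane subunit that holds the flavocytochrome together, read 39.7, 38.2, 40.2 and 40.9 CPM on control diet, 30.4, 24.3, 26.4 and 21.9 on high fibre and 60.8, 39.4 and 34.3 on acetate. Ncf4, a cytosolic subunit that binds phosphoinositides, read 81.7, 73.5, 81.1 and 83.1 CPM on control diet, 60.8, 54.7, 58.1 and 51.2 on high fibre and 91.8, 64.7 and 61.5 on acetate. Ncf1, the organizer that brings the cytosolic subunits to the membrane, read 59.2, 56.9, 52.9 and 56.5 CPM on control diet, 33.1, 41.5, 43.7 and 36.6 on high fibre and 69.1, 47.4 and 42.0 on acetate. In each of these the high fibre values lay below all control values, and acetate replicate 1 was again the highest library. The log2 fold changes were -0.62 with TMM (adjusted p = 0.00819) and 0.07 with library totals at Cyba, -0.51 with TMM (adjusted p = 0.00819) and 0.19 with library totals at Ncf4 and -0.54 with TMM (adjusted p = 0.00978) and 0.15 with library totals at Ncf1, with SEs of 0.15, 0.12 and 0.13 and edgeR as the test. Vav1, an exchange factor for Rac downstream of Fc receptors and integrins, gave -0.33 with TMM (adjusted p = 0.0420) and 0.37 with library totals, where it was called higher (adjusted p = 0.0206).

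**Figure D2:**
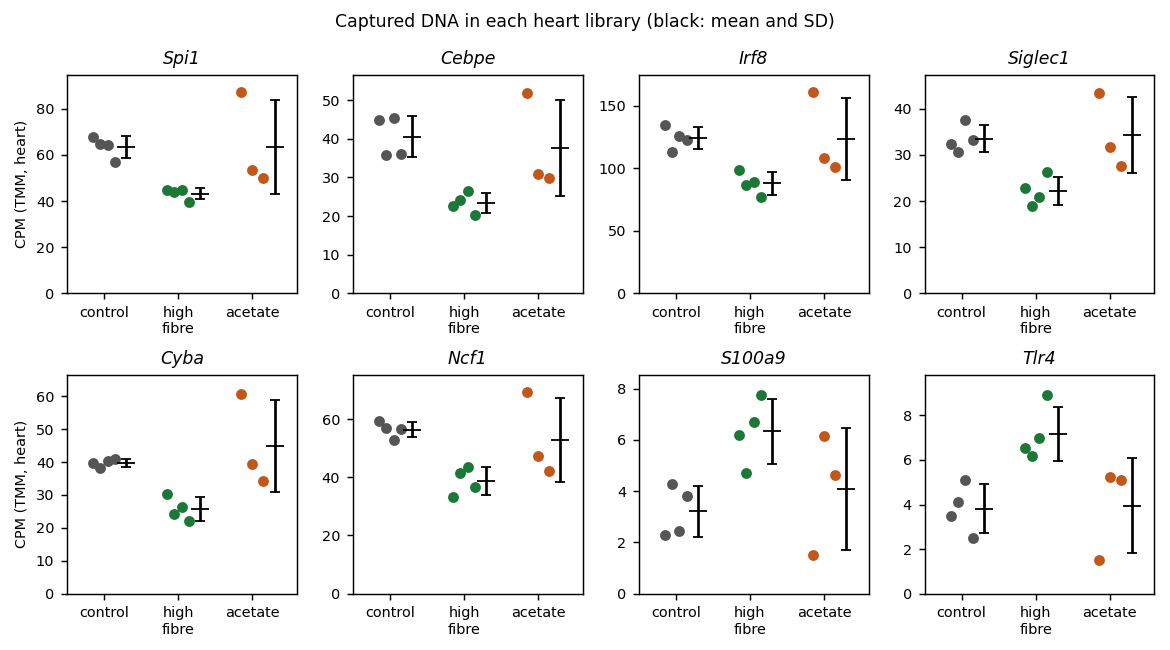
CPM (y axis, TMM within heart) in each heart library on control, high fibre and acetate (x axis) at 8 members, with mean and SD in black (n = 4, 4 and 3). High fibre values lie below all control values at Spi1, Cebpe, Irf8, Siglec1, Cyba and Ncf1 and above them at S100a9 and Tlr4; with library totals Spi1, Irf8, Siglec1, Cyba and Ncf1 turn to between 0.07 and 0.20, and Cebpe remains at -0.08.

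Calls over all windows varied with a window's level. In deciles of heart abundance, the median log2 fold change of all windows fell from 0.54 in the lowest decile to -0.27 in the highest, and 34.7% and 42.2% of all windows in the ninth decile and the highest were called lower. Of the 9 members in the ninth decile 5 were called lower, and all 5 in the top decile were. S100a9 and Tlr4 lie in the second and the third decile, where 29.6% and 23.9% of all windows were called higher. Cyclic loess, which removes such a trend within each library, left 10 of the 17 calls and ended those of C1qc, Csf1r, Fcgr3, Itgam, S100a9, Tlr4 and Vav1. Promoter CpG number also moved with the calls over all windows, with a median of 3 in windows called higher, 17 in windows called lower and 14 in the rest. The 9 members called lower that have a promoter entry had a median of 6 CpG (range 3 to 38), and 18 not called had 5. The part of abundance, Gm10800 share or promoter CpG in the members' result was not tested.

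**Figure D3:**
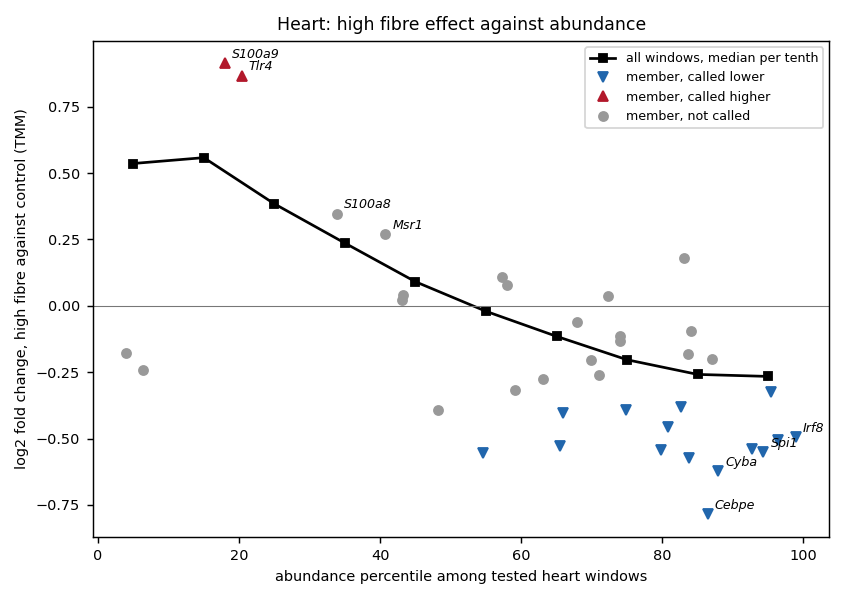
Log2 fold change of high fibre against control hearts (y axis, TMM) against the abundance percentile among tested heart windows (x axis). Triangles are called members, grey circles members not called and black squares the median of all windows in each decile, which falls from 0.54 to -0.27; with library totals the median over all windows lies 0.69 above 0 and 14 of the 17 called members change sign.

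Single libraries changed several of these calls. Over 11 fits that each left out 1 heart library, C1qa, Cebpe, Cyba, Ncf1, Ncf4, Siglec1 and Spi1 passed every time, with highest adjusted p-values of 0.0332 (Cebpe) to 0.0473 (Spi1). Irf8 and Prtn3 passed in 10 of 11, Csf1r and Elane in 9, Itgam in 8, Fcgr3 and Tlr4 in 7, S100a9 in 6, C1qc in 5 and Vav1 in 3. Without high fibre replicate 4, 7 members were lower and 0 higher, and C1qc, Csf1r, Elane, Fcgr3, Irf8, Itgam, Prtn3, S100a9, Tlr4 and Vav1 were lost. Without control replicate 1, 9 were lower and 0 higher, and C1qc, Csf1r, Elane, Fcgr3, Itgam, S100a9, Tlr4 and Vav1 were lost. Leaving out control replicate 2 or high fibre replicate 2 ended the call of Vav1, and each other control or high fibre library ended it together with C1qc. Itgam and S100a9 were also lost without control replicate 3, Fcgr3 and Tlr4 without control replicate 4, S100a9 without high fibre replicate 1, and Fcgr3, S100a9 and Tlr4 without high fibre replicate 3. Without any 1 of the acetate libraries all 17 calls stood. High fibre replicate 4 was the lowest of the 11 heart libraries at 18 of 38 members, and at 16.2% of all windows. With 1 surrogate variable in the model, 0 of the 17 passed although all 17 kept their sign, the smallest adjusted p being 0.0886 at Cebpe.

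High fibre against acetate hearts gave 2 calls among 38 members, where 1.38% of all windows passed (1.19% lower, 0.188% higher). Cyba and Siglec1 were lower on high fibre, at log2 -0.77 (SE 0.16, edgeR adjusted p = 0.0488) and -0.59 (SE 0.15, edgeR adjusted p = 0.04998). At both, all 4 high fibre libraries lay below all 3 acetate libraries, as they did at 12 members (11.1% of all windows). Tlr4 alone was above without overlap (10.3%), at log2 0.73 (adjusted p = 0.139). Just short of the threshold lay Cebpe (-0.65, adjusted p = 0.0504), Spi1 (-0.53, 0.0545, against -0.03 with library totals) and Irf8 (-0.48, 0.0579, against 0.02). Csf1r gave -0.41, Itgam -0.16, C1qa -0.28, Mpo -0.21, Lyz2 -0.25, S100a8 0.33 and Cebpa 0.10, and none passed. The number of calls varied: DESeq2 called 11 members lower, and scaling by totals, cyclic loess, a surrogate variable or a fit of the 2 groups alone called 0. Leaving out any high fibre library or control replicate 2, 3 or 4 also gave 0, and without acetate replicate 1 or control replicate 1 Cyba alone passed. Without acetate replicate 2 there were 6 calls (8.72% of all windows), adding Cebpe, Spi1, Irf8 and Prtn3, and without acetate replicate 3 there were 11 (13.4%). This comparison shares its high fibre libraries with the one above.

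Acetate against control hearts gave 0 calls among 38 members with edgeR, where 0% of all windows passed, and DESeq2 and limma also called 0. At an unadjusted p under 5%, 1 member passed (Trem2, log2 0.32) against 2.5% of all windows. Members ranged from -0.34 to 0.39 with a median of -0.02, against 0.02 over all windows. Spi1 gave -0.02 (SE 0.15), Csf1r -0.05, Cebpa -0.02, Lyz2 -0.02, Mpo 0.02 and S100a8 0.01, each smaller than its SE, and C1qa gave -0.25 and Itgam -0.22. Itgam was the one member whose acetate libraries all lay below control (1.6% of all windows). Acetate replicate 1 was the highest heart library at 17 of 38 members and the lowest at 5, and had the lowest median count per window (26). The comparison shares its control libraries with that of high fibre. Without acetate replicate 1, 2.02% of all windows passed, and Elane was called lower (log2 -0.59, adjusted p = 0.0460).

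In spleen, diet left no member past the threshold. High fibre against control gave 0 of 34 calls with edgeR, DESeq2 and limma, where 0% of all windows passed. At an unadjusted p under 5% there were 2, against 2.02% of all windows: Ctsg at -0.43 and Cebpa at 0.75. Cebpa read 1.05, 1.38, 1.66 and 1.63 CPM in control and 1.55, 4.30, 2.32 and 2.33 in high fibre spleens, so high fibre replicate 2 stood above the rest. Spi1 read 18.05, 19.2, 17.9 and 18.7 CPM in control and 19.7, 15.3, 13.4 and 16.3 in high fibre, with overlap (log2 -0.18). Values for the other lineage markers were 0.09 at Csf1r, -0.12 at Itgam, -0.08 at C1qa, 0.01 at Mpo, -0.02 at Lyz2 and -0.47 at S100a8.

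Acetate against control spleens also gave 0 of 34 calls with each of the 3 tools (0% of all windows). Ctsg (-0.47) and Mrc1 (-0.30) were under an unadjusted p of 5%, against 3.51% of all windows. Ctsg, which encodes cathepsin G, read 8.42, 10.7, 10.4 and 8.02 CPM in control and 7.79, 6.32, 7.93 and 5.23 in acetate spleens. The groups did not overlap at Ctsg, but 0 windows passed the adjustment. Cebpa gave 0.46, Lyz2 0.34, S100a8 0.20, Spi1 -0.16, Csf1r -0.09, Itgam -0.08, Mpo 0.07 and C1qa -0.04. High fibre against acetate gave 0 calls and 0 members at an unadjusted p under 5% (3.31% of all windows), with S100a8 at -0.67, Lyz2 at -0.36, Cebpa at 0.29 and Csf1r at 0.18 as the largest of the 8 markers. C1qa, Itgam, Mpo and Spi1 gave -0.04, -0.04, -0.06 and -0.02. The median count per window was 13 to 29 in spleen and 26 to 70 in heart.

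**Figure D4:**
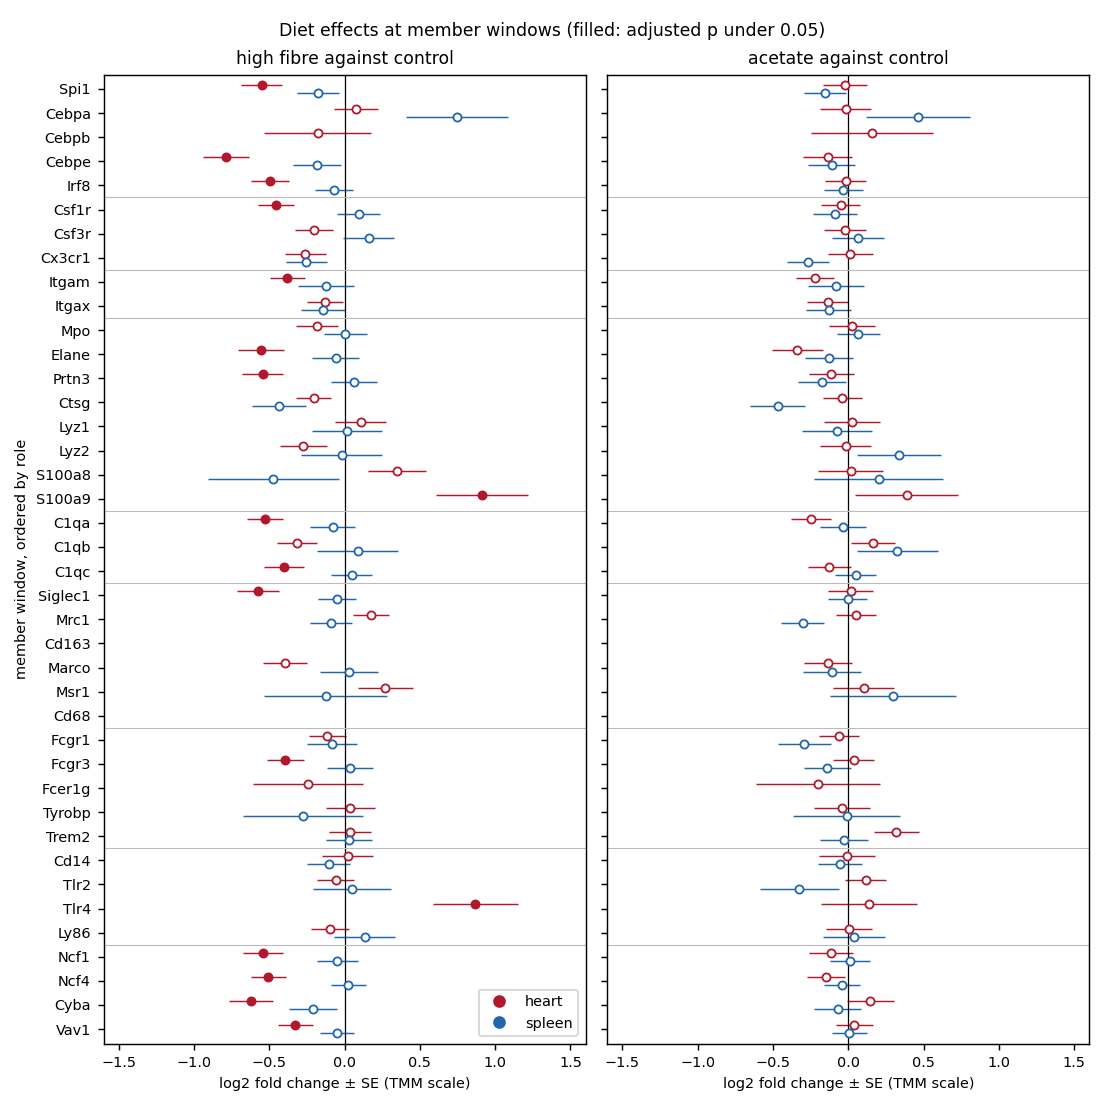
Log2 fold change with SE (x axis, TMM) of high fibre (left) and acetate (right) against control at the members (y axis, ordered by role) in heart (red) and spleen (blue), with filled points at an adjusted p under 5%. Filled points occur for high fibre in heart, 15 to the left and 2 to the right of 0; with library totals 14 of these 17 change sign.

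Whether the high fibre effect differed between tissues was tested as an interaction in 1 fit over all 23 libraries. With edgeR 0 of 38 members passed, where 0.0559% of all windows did (0.0177% higher and 0.0383% lower), and DESeq2 and limma called 0 members, so a difference between the tissues was not shown for any member. At an unadjusted p under 5% there were 11 members against 16.4% of all windows. Among them, Csf1r had an interaction of -0.55 (SE 0.18, adjusted p = 0.181, and 0.15 with library totals), Tlr4 1.601, Cebpa -0.68 (0.04 with library totals) and C1qa -0.45 (0.22 with library totals). Tlr4 did not pass the count filter in spleen and entered this fit through its heart counts. The median over members was -0.25. With library totals, which shift all windows by 0.67 here, 8 members passed as higher: Cd14, Ctsg, Cx3cr1, Itgax, Mrc1, S100a8, Tlr4 and Trem2. For acetate the interaction also gave 0 calls (0% of all windows) and 1 member at an unadjusted p under 5% (Ctsg, 0.46) against 4.57% of all windows.

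Between heart and spleen on control diet, 28 of 38 members passed with edgeR (72.7% of all windows), 14 with more and 14 with less capture in heart (40% and 32.7%). The 14 with more include Cebpb, Fcer1g, S100a9 and Tlr4, which did not pass the count filter in spleen and entered this fit through heart. The typical window lay 0.19 above 0 with TMM and 1.03 with library totals, where 29 members were called higher and 1 lower and 10 of the 28 calls turned in sign. With 1 surrogate variable 11 of the 28 stood and 7 turned in sign, and with cyclic loess 13 stood, 7 turned in sign and 2 were called on the opposite side. Capture was compared on the joint TMM scale of all 23 libraries. In 12 members all control hearts lay above all control spleens (36.2%), and in 14 they lay below (30.8%).

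Cebpa had the largest excess in heart, at 6.85, 9.30, 11.6 and 10.6 CPM in heart and 1.63, 1.97, 2.44 and 2.36 in spleen. No spleen library reached the lowest heart library (log2 2.02, SE 0.23, edgeR adjusted p = 3.50e-09). Lyz2 read 13.8, 11.8, 13.0 and 7.70 CPM in heart and 3.49, 5.07, 3.58 and 4.94 in spleen, again without overlap (log2 1.37, adjusted p = 5.75e-07). Itgam read 20.6, 20.9, 22.1 and 21.3 CPM in heart and 11.4, 13.9, 13.4 and 12.04 in spleen, and Spi1 44.8, 42.8, 42.7 and 37.5 CPM in heart and 28.0, 27.5, 26.4 and 27.1 in spleen. Both were higher in all hearts, with log2 fold changes of 0.72 and 0.62 (adjusted p = 6.31e-05 and 0.000745). Further members with more capture in heart were Msr1 (1.42), the adaptor Tyrobp (1.15), Tlr2 (0.95), C1qb (0.68), Ly86 (0.62) and Csf3r (0.43). At low counts, S100a9 (1.39), Fcer1g (1.47), Cebpb (1.28) and Tlr4 (0.90), were also higher with TMM, but with cyclic loess they gave 0.17, -0.08, -0.42 and -0.46. These windows did not pass the count filter in spleen and entered the joint fit through their heart counts. A call higher in heart was thus favoured by the filter and is no separate support. With library totals, values were 2.82 at Cebpa, 2.187 at Lyz2 and 1.51 at Spi1.

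In the other direction, Cebpe read 29.7, 23.6, 30.04 and 23.9 CPM in heart and 98.8, 58.6, 71.7 and 64.3 in spleen. The groups did not overlap, and spleen replicate 1 was the highest (log2 -1.44, SE 0.19, edgeR adjusted p = 3.91e-08). Cd14 read 5.64, 5.91, 6.63 and 9.21 CPM in heart and 17.01, 13.7, 18.7 and 17.2 in spleen, lower in all hearts (log2 -1.25, adjusted p = 1.29e-08). Cebpe and Cd14 remained below 0 with library totals, at -0.53 and -0.35. Trem2 and Elane were lower at -0.94 and -0.90, against -0.03 and -0.01 with library totals. The remaining 10 were lower with TMM and above 0 with library totals: Siglec1 -0.78 and 0.11, Cyba -0.77 and 0.14, C1qc -0.72 and 0.19, Mrc1 -0.61 and 0.27, Cx3cr1 -0.61 and 0.28, Mpo -0.44 and 0.46, Ncf1 -0.44 and 0.49, C1qa -0.43 and 0.47, Irf8 -0.40 and 0.51, and Itgax -0.40 and 0.49. Of these, Irf8, Mpo, Ncf1 and Itgax also turned with cyclic loess (0.45, 0.14, 0.27 and 0.06). Without spleen control replicate 1, Irf8, Itgax, Mpo, Ncf1 and Tlr4 no longer passed, and without heart control replicate 2 Irf8 and Tlr4 did not. Csf1r did not differ past the threshold (log2 0.16, adjusted p = 0.263), nor did S100a8 (0.54, adjusted p = 0.111).

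Chains and partners of 1 complex could differ in direction. Within the C1q cluster C1qb was higher in control heart and C1qa and C1qc were lower with TMM, although the starts of C1qb and C1qc lie 6714 bases apart, and with library totals C1qb gave 1.54, C1qa 0.47 and C1qc 0.19. Tyrobp was higher and its partner Trem2 lower, at 1.96 and -0.03 with library totals. Cebpa and Cebpe, of the same family of factors, lay at opposite ends of the list under both scalings.

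On high fibre 31 of 38 members passed between tissues (80.7% of all windows), 12 higher and 19 lower in heart (45.1% and 35.6%), and the typical window lay 0.24 above 0. Of these 31 calls, 18 turned in sign with library totals, 16 of them called on the opposite side. With cyclic loess 10 of the 31 stood, 11 turned in sign and 3 were called on the opposite side, and with 1 surrogate variable 5 stood and 6 turned in sign. On acetate 27 passed (63%), 16 higher and 11 lower (34% and 29%), but without acetate heart replicate 2 only 9 were higher and 6 lower, without heart replicate 3 only 6 were lower, and without acetate spleen replicate 4 only 10 were higher. Sample titles also carry a number that each heart library shares with a spleen library of the same diet and replicate number. With this title number as a block 17 of the 27 stood, and C1qb, Csf3r, Ctsg, Cyba, Fcer1g, Fcgr1, Itgax, Mpo, S100a9 and Tlr4 no longer passed. With cyclic loess 14 of the 27 stood and 5 turned in sign, with 1 surrogate variable 13 stood, and with library totals 8 turned in sign. With library totals 35 members on high fibre and 30 on acetate were higher and 1 lower in each. The median of all windows lay at 1.77 and 1.09 with that scaling, so these counts carry a shift of all windows. Cebpa was higher in heart and Cebpe lower on every diet, at 1.34 and -2.03 on high fibre and 1.55 and -1.43 on acetate. Spi1, higher in heart on control and acetate (0.78), gave 0.24 on high fibre and did not pass there. Tlr4 gave 2.51 and S100a9 2.04 on high fibre, on few spleen reads. Both, with Cebpb and Fcer1g, were called higher in heart on every diet and passed the joint filter through their heart counts. Elane gave -1.39 and Siglec1 -1.31 on high fibre with TMM, and 0.18 and 0.26 with library totals. These comparisons use different libraries for each diet, but differences between diets were tested only as the interactions above.

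**Figure D5:**
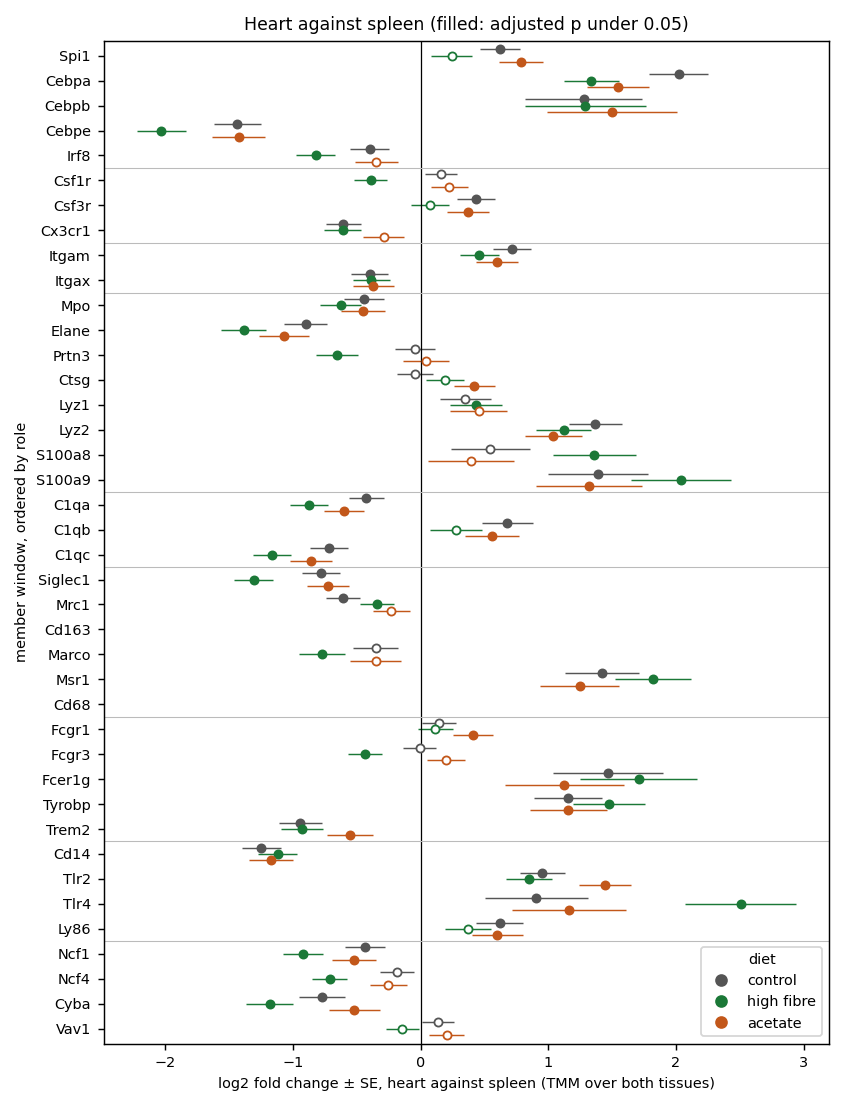
Log2 fold change with SE (x axis, joint TMM) of heart against spleen at the members (y axis, ordered by role) on control, high fibre and acetate, with filled points at an adjusted p under 5%. Cebpa, Lyz2, Msr1 and Tlr2 lie to the right and Cebpe, Cd14 and Elane to the left of 0 on all 3 diets; with library totals all windows shift to the right, 10 of the 14 members on the left turn on control, and Cd14 and Elane turn on high fibre (0.43 and 0.18).

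Other myeloid genes, a list of 65 with 60 tested in heart, had 15 lower and 4 higher on high fibre than on control (31.7%, against 26.2% of all windows) with TMM, and 0 lower and 40 higher with library totals. Their median log2 fold change was -0.17. The 3 of smallest p below control were Csf2ra (log2 -0.76, adjusted p = 0.00532) and Il3ra (-0.78, 0.00532), receptor chains for GM-CSF and interleukin 3, each at -0.08 with library totals, and the TAM receptor Axl (-0.53, 0.00640), which gave 0.17. Above control stood the kinase Lyn (0.61, adjusted p = 0.00549), the fatty acid receptor Cd36 (0.93, 0.00581) and the formyl peptide receptor Fpr1 (1.53, 0.00875), which stayed above 0 with library totals at 1.30, 1.598 and 2.12.  On control diet, 22 of these 60 were higher and 16 lower in heart than in spleen (40% and 32.7% of all windows), and 46 and 2 with library totals. The repressor Gfi1 (-5.46), Nr1h3 (-1.15) and C5ar1 (-0.95) were lower in heart with TMM. The signalling genes Rac2 (2.45), Lyn (1.86) and Inpp5d (1.53) were higher. With library totals Gfi1, Rac2, Lyn and Inpp5d kept their sign (-4.57, 3.27, 2.65 and 2.38), and values for Nr1h3 and C5ar1 are not given here.

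Markers of other cell types were read on the same windows. Against control, high fibre hearts had 4 lower and 2 higher of 17 B cell markers, 6 and 2 of 19 T and NK cell markers, 4 and 2 of 23 cardiomyocyte markers and 4 and 2 of 10 erythroid markers with TMM (13.6% of all windows lower and 12.6% higher), and with library totals 0 lower and 10, 10, 14 and 6 higher. Levels were also summed over all windows of these lists, tested or not, which were 17, 21, 24 and 11. The sums in control and high fibre hearts were 305 to 346 and 295 to 302 CPM for B cell, 524 to 607 and 418 to 480 for T and NK cell, 564 to 632 and 556 to 594 for cardiomyocyte and 354 to 387 and 286 to 318 for erythroid markers. Lat and Hand2, and Myd88 of the other myeloid genes, had no reads. The part of such cells in the members' result was not tested. As a check of the tissue labels, 23 cardiomyocyte markers were compared between heart and spleen on control diet, and 9 were higher and 12 lower in heart with TMM (40% and 32.7% of all windows), against 13 and 3 with library totals. The 3 of smallest p on the lower side were Mybpc3, Myh6 and Ttn, at log2 -2.37, -1.71 and -1.105 with TMM and -1.45, -0.80 and -0.19 with library totals. On the higher side they were Csrp3, Gata4 and Nkx2-5, at 1.38, 0.89 and 1.39 with TMM and 2.22, 1.75 and 2.14 with library totals. Of 17 B cell markers 10 were higher in heart and 2 lower, and 14 against 1 with library totals.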

How the data were processed

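The authors deposited raw counts: reads per gene start window and library, in 1 table for each tissue, without normalization or pooling. Per the submitters' processing notes, the tools were featureCounts 1.5.1, edgeR 3.16.5, BWA 0.7.10 and bcl2fastq 2.19.1.403, and the build was GRCm38. How windows are centred and how duplicate or multiply overlapping reads were counted is not given in the sources used here. All 40 members were found by symbol, and 0 sample columns stayed unused.

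Windows were tested with the quasi-likelihood test of edgeR 4.0.16 (R 4.3.3) on counts with TMM scaling, filterByExpr at a minimum count of 10, a prior count of 2 for fold changes, and Benjamini-Hochberg adjustment over all tested windows at 5%. Heart, spleen and both tissues were fitted separately. Fits were tested on simulated counts. Alternatives used DESeq2 1.42.0, limma 3.58.1 (voom with cyclic loess), sva 3.50.0 (1 surrogate variable), library totals, no filter, a replicate block, only the groups compared, and 1 library left out. The block was the replicate number within a tissue and, across tissues, the number that heart and spleen titles share. Count columns of replicates were not copies of each other, the lowest chi-square per degree of freedom within a group being 1.557. Whether libraries come from the same DNA or mouse was not tested. Promoter sequences and gene positions come from RefSeq tables of GRCm38.p6.

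The members and lists were chosen with earlier results of these data known. Members past the threshold are named, at most 6 in each direction in full, with 8 markers (Spi1, Csf1r, Itgam, Cebpa, Lyz2, Mpo, S100a8, C1qa) in every diet comparison and at most 3 genes in each direction of the other lists. Library totals and median counts, given in the report, limit the precision of low windows.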

Additional observations from a re-analysis of the deposited data

Results flagged for a closer look

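In groups of 4 libraries, 14 of 194 member and group combinations held 1 library farther from the other 3 than Dixon's 95% criterion allows, which chance alone exceeds in about 1 of 20 groups. In heart these were Spi1 in high fibre replicate 4 (39.6 CPM, the others 44.0 to 44.7), S100a8 in high fibre replicate 1 (7.83, the others 9.56 to 9.89) and Mrc1 in high fibre replicate 3 (35.1, the others 28.4 to 29.4). High fibre replicate 4 is the library whose removal ended most heart calls, and Spi1 passed without it.

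In high fibre spleens, replicate 4 was low at Elane (11.5 CPM, the others 13.7 to 14.1) and Marco (5.70, the others 8.38 to 8.76). Replicate 3 was low at S100a8 (0.535, the others 1.67 to 1.81) and high at Fcer1g (0.357, the others 0.119 to 0.159). Replicate 1 was low at Fcgr3 (8.70, the others 11.8 to 12.3), and replicate 2 was low at Cx3cr1 (9.40, the others 12.7 to 13.2). In acetate spleens, replicate 4 was high at Spi1 (21.0, the others 14.5 to 15.1) and Irf8 (84.3, the others 65.5 to 68.3), and replicate 3 was high at Lyz2 (5.41, the others 3.06 to 3.45). Cd163 had 1 read in high fibre replicate 3 (0.178 CPM) and 1 in control replicate 1 (0.150 CPM) of spleen and 0 in the other spleen libraries. No cause of these values was tested.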

How the results depend on the processing

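For high fibre against control hearts, scaling by library totals turned C1qa to 0.15, Csf1r to 0.24, Cyba to 0.068, Itgam to 0.31, Mpo to 0.52, Ncf1 to 0.15, Ncf4 to 0.19, Siglec1 to 0.12 and Spi1 to 0.15. For heart against spleen it turned C1qc to 0.19 and Siglec1 to 0.11 on control, C1qa to 0.33, C1qc to 0.067 and Siglec1 to 0.18 on acetate, and C1qc to 0.40, Cd14 to 0.43, Cyba to 0.39, Elane to 0.18 and Siglec1 to 0.26 on high fibre. By construction it adds the shift of all windows. Counts of members called with library totals were 19 higher and 0 lower for high fibre against control hearts (2 and 15 with TMM), 0 lower for high fibre against acetate hearts (2 with TMM), 8 higher for the interaction (0 with TMM), and between tissues 29 and 1 on control (14 and 14), 35 and 1 on high fibre (12 and 19) and 30 and 1 on acetate (16 and 11).

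With 1 surrogate variable the counts were 0 and 0 for high fibre against control hearts, 0 lower against acetate, and 9 and 3, 4 and 3, and 9 and 5 between tissues on control, high fibre and acetate. Cyclic loess gave 1 higher for high fibre against control hearts, 0 lower against acetate, and 5, 6 and 4 lower between tissues on control, high fibre and acetate. For high fibre against acetate hearts DESeq2 called 11 lower, no filter 5 and only the groups compared 0, and the latter gave 7 lower between tissues on acetate. The cause of these differences was not tested.

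Sample titles carry a replicate number and a title number, which each heart library shares with a spleen library of the same diet. The labels do not say whether either number pairs the samples, for example by mouse. Libraries were not taken as pairs, so the main tests between tissues and the interactions treat them as independent. Libraries of the same replicate number had a median correlation of 0.0996 in heart (5 of 10 pairs over 0.1) and 0.0621 in spleen (5 of 12). Other pairs had -0.018 (6 of 30) and -0.012 (5 of 36). Across tissues, libraries of the same title number had 0.00250 (4 of 11), against 0.0037 (28 of 121) for other pairs. With the replicate number as a block, 5 members were lower for high fibre against acetate hearts, and all 17 calls for high fibre against control hearts stood. With the title number as a block, 9 members were higher between tissues on acetate.

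Leaving out 1 library gave 0 to 2 higher and 7 to 17 lower members for high fibre against control hearts, 0 to 11 lower against acetate and 0 to 1 lower for acetate against control. Between tissues it gave 13 to 14 higher and 10 to 15 lower on control, 11 to 13 and 17 to 19 on high fibre, and 9 to 16 and 6 to 14 on acetate. The 3 spleen comparisons had 0 calls under every alternative run. With 3 or 4 libraries a group, the median count per window was 13 to 29 in spleen and 26 to 70 in heart.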
